A study of Arabidopsis thaliana with 30 samples.

Results

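Protoplasts of Arabidopsis thaliana inflorescences that had been passed through a cell sorter were compared with inflorescences frozen whole, to describe which RNAs were raised and, above all, which were lowered between tissue and sorted cells. Of the 15 libraries of the series, 7 entered the comparison: replicates 1, 2 and 3 of ALL-SORT and replicates 1 to 4 of NO-SORT. ALL-SORT cells were released from the tissue, run through fluorescence-activated cell sorting without selection for the reporter and collected in Trizol, whereas NO-SORT inflorescences went straight into liquid nitrogen. Both groups, and the YFP-NEG and YFP-POS fractions sorted on the reporter, came from plants with pSHP2-GAL4 and pUAS-3xYpet in an ap1; cal background with pAP1-AP1::GR, so these alleles and transgenes were shared by all libraries and none of the differences below is a difference of genotype. In such plants AP1, fused to a glucocorticoid receptor, can be switched on with a steroid, which makes the young flowers of a plant develop in step; the labels give neither a steroid treatment nor the age of the plants. The yellow reporter follows the SHP2 promoter, which is active in the medial part of the young gynoecium, and was not used to choose ALL-SORT cells. The fourth ALL-SORT library was left out because its expression lay between the other ALL-SORT libraries and NO-SORT. It was therefore set aside on measured values and not on a label, and its own values are given for a part of the genes and lists below.

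A protoplast is a plant cell whose wall has been digested with enzymes. The tissue is cut and incubated during that time, and wounding, wall fragments and touch are known to switch on jasmonate, immune and touch-responsive genes in many plant tissues. The epidermis, the outermost cell layer, makes the cuticle, a sheet of the polyester cutin and of waxes that covers flowers and leaves. The digestion, the sorter and the time that passed were applied together, so their shares in a difference cannot be told apart.

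Total counts ranged from 12644721 to 15964336 in the 3 ALL-SORT libraries and from 14941768 to 16692127 in NO-SORT, and reached 21027032 in ALL-SORT replicate 4. Organelle loci held 1.175% to 1.585% of the counts in ALL-SORT replicates 1 to 3 and 0.918% to 1.2% in NO-SORT. SHP2 had 7.58, 11.6 and 6.90 CPM in ALL-SORT, against 5.02, 7.25, 8.50 and 4.85 CPM in NO-SORT, in groups that overlapped (log2 fold change 0.39, SE 0.27, adjusted p = 0.3, quasi-likelihood F test of edgeR with Benjamini-Hochberg adjustment over all genes tested, which gives every adjusted p below). AP1 (log2 fold change 0.40, SE 0.17, adjusted p = 0.0967) and CAL (log2 fold change 0.35, SE 0.25, adjusted p = 0.308) were not called either, although AP1 passed the threshold without NO-SORT replicate 1 (log2 fold change 0.56, adjusted p = 0.0103). Levels are CPM, read counts relative to the size of the library after scaling by the trimmed mean of M values (TMM), and levels of different genes are compared only per kilobase of exon.

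Of 18958 genes tested, 5632 (29.7%) were called at an adjusted p under 0.05. The calls comprised 2900 genes (15.3%) that rose and 2732 (14.4%) that fell in ALL-SORT. A change of at least 2-fold was found for 2379 genes (12.5%), of which 1422 (7.5%) rose and 957 (5.05%) fell. The decreases were thus about as many as the increases but smaller: a stricter threshold, 4-fold with an adjusted p below 0.001, kept 644 increases (3.4%) and 55 decreases (0.29%). Over all genes tested the median was -0.04 on the log2 scale. For 7262 genes (38.3%) the CPM ranges of the groups did not overlap. List members named below were chosen chiefly for a call and a large change, so a lack of overlap in them partly follows from that choice. When libraries were scaled by their totals in place of TMM, the median moved to -0.19 and the calls split into 2127 higher and 4344 lower, so the balance between the directions depends on the scaling. Because that scaling moved estimates down, the 957 genes that fell at least 2-fold could hardly lose their call, and all kept it. Of the 1422 that rose at least 2-fold, 1389 were still called.

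The number of decreases that pass the test depends on ALL-SORT replicate 4. With it included, 18733 genes were tested, 1844 were called higher and 674 lower, and at least 2-fold changes numbered 1120 higher and 227 lower. Of the 957 genes that fell at least 2-fold without it, 941 still had a lower estimate but 337 were called. Of the 1422 that rose, 1346 had a higher estimate and 1226 were called. In CPM this library sat, at the median gene, 24.3% of the way to the ALL-SORT mean for the genes that rose, counted from the NO-SORT mean, and 25.9% for the genes that fell. It lay beyond all NO-SORT libraries in 1287 of the 1422 genes that rose (90.5%) and in 496 of the 957 that fell (51.8%). On the log2 scale the same distances were 46.2% for genes that rose and 17.0% for genes that fell. In log2 CPM this library correlated most closely with NO-SORT replicate 1 (0.9753). Its correlations with ALL-SORT replicates 1 to 3 were 0.9613, 0.9398 and 0.9518.

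**Figure D1:**
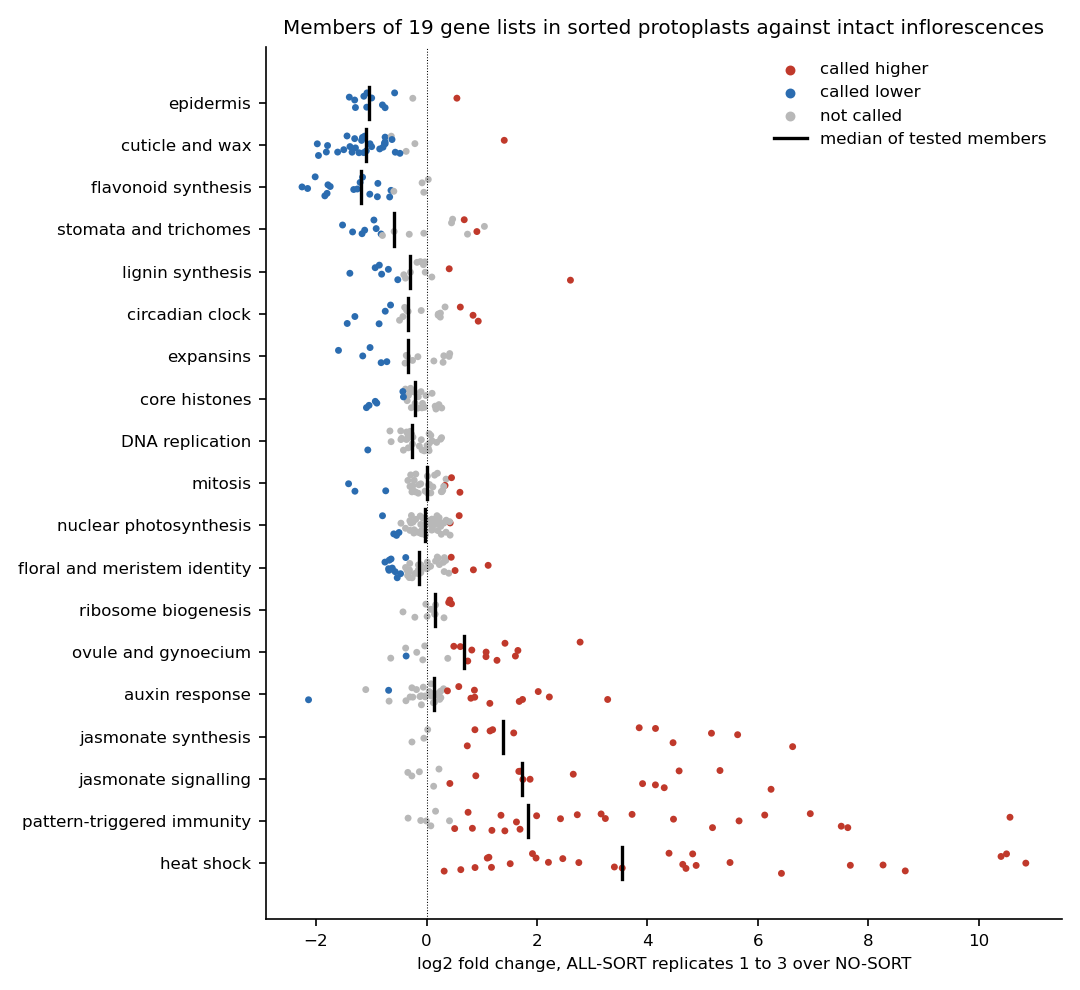
Each point is a tested member of 1 of 19 gene lists, placed by its log2 fold change in ALL-SORT replicates 1 to 3 over NO-SORT; red points were called higher, blue points lower and grey points were not called, and black bars mark list medians. The epidermis, cuticle and flavonoid lists lie mostly below 0 (medians -1.04, -1.10 and -1.18) and the jasmonate, immunity and heat shock lists mostly above it (heat shock median 3.54); estimates of genes with almost no counts in NO-SORT depend on the prior count of the fit.

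The 12 largest decreases, taken by the rule for named genes, were not from a single pathway. That rule keeps only genes whose CPM ranges do not overlap between the groups, so their separation was set by the choice. AT3G61898 (locus on chromosome 3, annotated as an uncharacterized protein) had 0.0774, 0.338 and 0.336 CPM in ALL-SORT, against 10.9, 16.3, 11.1 and 11.3 CPM in NO-SORT. FH3, a formin that nucleates actin filaments, had 1.39, 1.35 and 1.51 CPM in ALL-SORT, against 9.45, 29.4, 40.2 and 32.3 CPM in NO-SORT. The ALL-SORT libraries were close together for FH3, and NO-SORT replicate 1 was far below the other 3 intact libraries. The changes came to -5.63 on the log2 scale for AT3G61898 (SE 0.37, adjusted p = 1.14e-06) and -4.36 for FH3 (SE 0.50, adjusted p = 8.82e-05). ALL-SORT replicate 4 had 8.004 CPM for AT3G61898 and 7.58 CPM for FH3.

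Of the others, AT2G42990 and AT4G28780 encode GDSL-like lipases, a family that includes cutin-forming enzymes. AT2G42990 had 3.48, 7.64 and 8.33 CPM in ALL-SORT, against 78.2, 72.9, 55.7 and 41.2 CPM in NO-SORT, and AT4G28780 had 4.101, 7.501 and 8.999 CPM in ALL-SORT, against 53.9, 50.3, 34.5 and 37.6 CPM in NO-SORT. The log2 fold change was -3.31 for AT2G42990 (SE 0.30, adjusted p = 1.54e-05) and -2.74 for AT4G28780 (SE 0.25, adjusted p = 1.63e-05). AT2G38995, of the wax ester synthase family, had 7.66, 6.42 and 12.3 CPM in ALL-SORT, against 78.0, 72.3, 62.2 and 63.0 CPM in NO-SORT (log2 fold change -3.03, SE 0.21, adjusted p = 1.58e-06). AT5G55720, a pectin lyase-like protein, had 6.03, 10.5 and 14.5 CPM in ALL-SORT, against 99.8, 78.4, 70.7 and 54.0 CPM in NO-SORT (log2 fold change -2.93, SE 0.28, adjusted p = 2.29e-05). In each of these genes the lowest intact library stood more than 3 times above the highest of the 3 sorted ones.

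AT5G17700 encodes an efflux carrier of the MATE family and averaged 4.07 ± 1.935 CPM in ALL-SORT and 35.2 ± 3.29 CPM in NO-SORT (SD, n = 3 and 4). AT1G03495, an acyltransferase of the HXXXD type, averaged 4.299 ± 0.900 CPM in ALL-SORT and 28.0 ± 3.59 CPM in NO-SORT. AT1G11410, an S-locus lectin kinase, averaged 3.07 ± 0.266 CPM in ALL-SORT and 20.02 ± 5.89 CPM in NO-SORT, with NO-SORT replicate 1 the highest. MLP328, of the major latex protein family, averaged 1.13 ± 0.115 CPM in ALL-SORT and 11.5 ± 2.79 CPM in NO-SORT, and AT4G28160, a hydroxyproline-rich glycoprotein, averaged 1.04 ± 0.0822 CPM in ALL-SORT and 10.04 ± 1.72 CPM in NO-SORT. Their log2 fold changes were -3.18, -2.75, -2.75, -3.38 and -3.32 in that order, with adjusted p-values of at most 9.07e-06. AT2G42990, AT1G11410 and AT4G28160 overlap an annotated neighbour, and the handling of strand in the counting is not given in the sources used here, so reads of such pairs cannot be assigned with certainty. When ALL-SORT replicate 4 was included, 11 of the 12 were no longer called and FH3 still was. The estimates of the 11 then ran from -2.44 for AT3G61898 to -1.38 for AT1G11410, and their adjusted p-values from 0.0511 for AT1G03495 to 0.148 for AT1G11410. The last of the 12, TAS1C, is a non-coding RNA and is described with its family below.

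The most abundant genes that fell at least 2-fold included surface and defence proteins of flowers. ESP, the epithiospecifier protein that steers glucosinolate breakdown towards nitriles, had 403, 718 and 775 CPM in ALL-SORT, against 2877, 1968, 1452 and 1887 CPM in NO-SORT (log2 fold change -1.75, SE 0.26, adjusted p = 0.000588). PDF1, a proline-rich protein of the outermost cell layer, had 554, 647 and 719 CPM in ALL-SORT, against 1636, 1105, 1028 and 1456 CPM in NO-SORT (log2 fold change -1.08, SE 0.17, adjusted p = 0.000985). In both genes the highest sorted library stayed below the lowest intact one, and NO-SORT replicate 1 was the highest of all 7. The lipid transfer proteins LTP1 and LTP6, which are secreted at plant surfaces, averaged 492 ± 96.2 CPM in ALL-SORT and 1155 ± 119 CPM in NO-SORT for LTP1 and 571 ± 91.3 CPM in ALL-SORT and 1178 ± 165 CPM in NO-SORT for LTP6. CAD9, a cinnamyl alcohol dehydrogenase, averaged 259.7 ± 35.2 CPM in ALL-SORT and 714 ± 122.6 CPM in NO-SORT, and AT4G29030, a putative membrane lipoprotein, averaged 452 ± 99.9 CPM in ALL-SORT and 1114 ± 163 CPM in NO-SORT. The log2 fold changes were -1.29 for LTP1, -1.10 for LTP6, -1.51 for CAD9 and -1.36 for AT4G29030, each at an adjusted p of at most 0.000346.

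VSP1, a vegetative storage protein and a classic jasmonate-induced gene, had 359, 833 and 741 CPM in ALL-SORT, against 863, 1108, 1393 and 1589.8 CPM in NO-SORT (log2 fold change -1.01, SE 0.29, adjusted p = 0.0234). All sorted values lay below all intact ones, whereas the jasmonate genes described below rose. It was not called without NO-SORT replicate 3 (adjusted p = 0.0546), NO-SORT replicate 4 (0.0627) or ALL-SORT replicate 1 (0.0564). The chloroplast locus ATCG01130 had 139, 147 and 213 CPM in ALL-SORT, against 303, 606, 819 and 478 CPM in NO-SORT (log2 fold change -1.79, SE 0.31, adjusted p = 0.00152). Per kilobase of exon, LTP6 had the highest level in NO-SORT of the 7 nuclear genes in this set, at 787 CPM per kb in ALL-SORT and 1623 in NO-SORT, and LTP1 followed with 591 and 1388.

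Genes of the epidermis fell as a group. Of 12 markers of that cell layer, all tested, 10 fell, 1 rose and 1 was not called; their median log2 fold change was -1.04, beside -0.04 for all genes tested, of which 14.4% fell. Their summed level was 1619 to 2017 CPM in ALL-SORT replicates 1 to 3 and 3015 to 4510.4 CPM in NO-SORT, and no marker was at 0. In a mixed RNA sample fewer cells of a type and less RNA of that type per cell cannot be told apart. PDF2, one of the homeodomain regulators that specify this layer, had 103, 97.0 and 122.9 CPM in ALL-SORT, against 287, 203, 167 and 219 CPM in NO-SORT (log2 fold change -1.08, SE 0.17, adjusted p = 0.00094). HDG5, a homeodomain protein of the same class, had 31.8, 19.8 and 29.1 CPM in ALL-SORT, against 85.2, 60.9, 59.5 and 68.0 CPM in NO-SORT (log2 fold change -1.40, SE 0.18, adjusted p = 0.000259). ACR4, a receptor kinase of the outer layer, had 30.9, 19.7 and 31.5 CPM in ALL-SORT, against 77.6, 50.8, 48.5 and 55.3 CPM in NO-SORT (log2 fold change -1.13, SE 0.20, adjusted p = 0.00202). No value of these 3 genes, named chiefly for their change, overlapped between the groups, as for 38.3% of all genes tested.

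ATML1, the paralog of PDF2, had 80.2, 81.2 and 117 CPM in ALL-SORT, against 224, 136, 111 and 153 CPM in NO-SORT in ranges that overlapped (log2 fold change -0.80, SE 0.22, adjusted p = 0.021), and it was not called without ALL-SORT replicate 1 (adjusted p = 0.0642) or replicate 2 (0.0853). HDG1, another member of the class, was the marker that rose (95.8 ± 6.15 CPM in ALL-SORT and 63.1 ± 7.11 CPM in NO-SORT, log2 fold change 0.55, SE 0.11, adjusted p = 0.00467). Including ALL-SORT replicate 4 left 1 of the 12 markers called lower: that library had 243 CPM of PDF2, 72.8 CPM of HDG5 and 66.7 CPM of ACR4, all inside the NO-SORT ranges. For each of these genes it lay above NO-SORT replicates 2 to 4 and below NO-SORT replicate 1.

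The cuticle and wax list followed the epidermal markers, part of which it shares. Of 32 genes, 28 fell (87.5%), 18 of them at least 2-fold, with a median of -1.10. Over all genes tested 14.4% fell, 5.05% at least 2-fold. CER1, of wax alkane synthesis, had 127, 175 and 181 CPM in ALL-SORT, against 491, 404, 334 and 350.4 CPM in NO-SORT (log2 fold change -1.35, SE 0.17, adjusted p = 0.000158). CUT1, the elongase of very-long-chain fatty acids, had 60.3, 99.7 and 114 CPM in ALL-SORT, against 293, 214, 174 and 185 CPM in NO-SORT (log2 fold change -1.30, SE 0.23, adjusted p = 0.00172). CER4, the reductase that makes primary alcohols, had 8.05, 11.2 and 16.7 CPM in ALL-SORT, against 44.2, 42.9, 31.5 and 40.8 CPM in NO-SORT (log2 fold change -1.79, SE 0.22, adjusted p = 0.000144). In these wax genes each sorted library stood below each intact one. CER2 averaged 23.0 ± 6.68 CPM in ALL-SORT and 62.4 ± 10.2 CPM in NO-SORT and WSD1, a wax ester synthase, averaged 28.8 ± 4.87 CPM in ALL-SORT and 109 ± 18.5 CPM in NO-SORT.

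Genes of cutin fell alike. CYP77A6, a hydroxylase of flower cutin, averaged 24.8 ± 7.45 CPM in ALL-SORT and 84.4 ± 37.4 CPM in NO-SORT, and GPAT6, the acyltransferase that works with it, averaged 33.5 ± 7.27 CPM in ALL-SORT and 84.4 ± 20.8 CPM in NO-SORT. The log2 fold changes were -1.50 for CER2, -1.98 for WSD1, -1.81 for CYP77A6 and -1.39 for GPAT6, with adjusted p-values of at most 0.00153. Their regulators fell with them. MYB16 had 8.28, 13.4 and 17.58 CPM in ALL-SORT, against 54.7, 48.98, 46.7 and 44.4 CPM in NO-SORT (log2 fold change -1.96, SE 0.21, adjusted p = 4.77e-05), its paralog MYB106 averaged 5.26 ± 0.504 CPM in ALL-SORT and 15.5 ± 3.09 CPM in NO-SORT (log2 fold change -1.61, SE 0.20, adjusted p = 0.00014), and SHN1, an activator of wax and cutin genes, averaged 12.5 ± 3.29 CPM in ALL-SORT and 32.6 ± 8.10 CPM in NO-SORT (log2 fold change -1.44, SE 0.23, adjusted p = 0.000851). The member that rose was MYB30, which is known to raise very-long-chain fatty acid synthesis during defence (40.9 ± 2.72 CPM in ALL-SORT and 14.9 ± 2.85 CPM in NO-SORT, log2 fold change 1.41, SE 0.14, adjusted p = 3.6e-05). The summed level of the list was 2430.3 to 3276 CPM in ALL-SORT and 4550.5 to 7217 CPM in NO-SORT. It moved with the epidermal markers, and how far the level of those markers enters it was not tested. ALL-SORT replicate 4 had a sum of 6164 CPM, inside the NO-SORT range but above NO-SORT replicates 2 to 4 (5379, 4550.5 and 5312.5 CPM). Including it left 2 of the 32 genes called lower; when each of the 7 libraries was left out in turn, 25 to 28 were.

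By contrast, fatty acid synthesis, which feeds cutin and wax, had a median of 0.09. Of its 20 genes 2 rose (10%) and 3 fell (15%), near the 15.3% and 14.4% of all genes tested. Beyond the list, genes annotated as GDSL-like lipases were picked from a scan of product names that was made after the values had been seen. Among 276 product names with at least 10 tested genes, the GDSL-like lipase and acylhydrolase name held 50 genes, 14 of which (28%) fell at least 2-fold, against 5.05% of all genes. A pair of smaller names had higher shares, kinase interacting proteins with 5 of 11 (45.5%) and pollen Ole e allergen and extensin proteins with 3 of 10 (30%). The wider group of 55 genes with GDSL in their annotation had 19 that fell and 3 that rose (4 and 1 with ALL-SORT replicate 4 included), with a median of -0.43. Besides the 2 lipases above, RXF26 had 7.27, 13.6 and 11.1 CPM in ALL-SORT, against 92.6, 60.9, 43.9 and 38.5 CPM in NO-SORT (log2 fold change -2.51, SE 0.31, adjusted p = 0.000163). Its 3 sorted values lay together and far below the intact ones, among which NO-SORT replicate 1 was the highest; ALL-SORT replicate 4 had 70.6 CPM. The summed level of the 55 genes was 1038 to 1520.0 CPM in ALL-SORT and 1665 to 3024 CPM in NO-SORT.

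**Figure D2:**
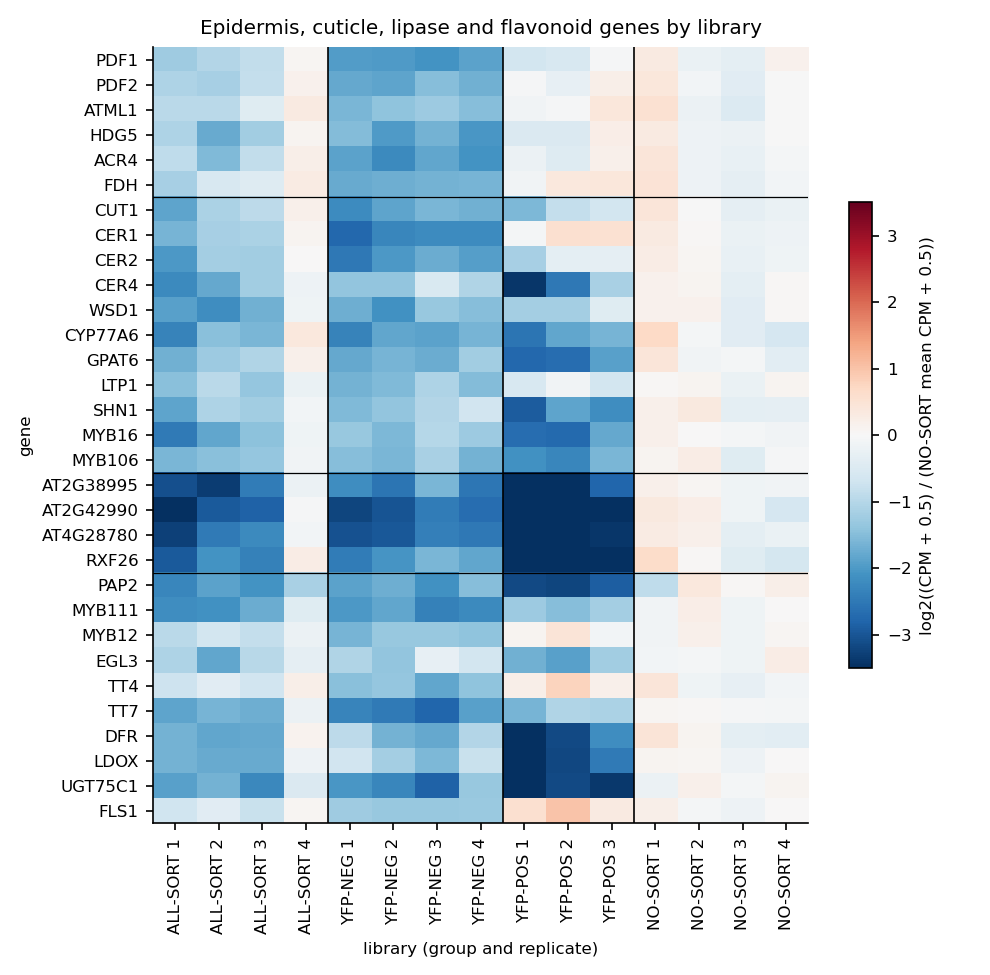
Each row is a gene and each column a library; the colour is log2 of CPM + 0.5 over the NO-SORT mean + 0.5, limited to 3.5 in either direction, with the sorted groups left of NO-SORT and lines between groups and between epidermis, cuticle, lipase (with AT2G38995) and flavonoid genes. ALL-SORT replicates 1 to 3 and YFP-NEG are in shades of blue, ALL-SORT replicate 4 is close to NO-SORT except for PAP2, and YFP-POS is pale or red for PDF2, CER1 and FLS1 and dark blue for the lipases, DFR and UGT75C1.

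Flavonoid synthesis had the lowest median of the pathway lists. Of its 20 genes 16 fell (80%), 12 of them at least 2-fold, none rose, and the median was -1.18. Over all genes tested 14.4% fell, 5.05% at least 2-fold, and 15.3% rose. TT4, chalcone synthase, the first enzyme, had 724, 916 and 758 CPM in ALL-SORT, against 1605, 1095, 987 and 1131 CPM in NO-SORT (log2 fold change -0.64, SE 0.17, adjusted p = 0.0158), and was not called without ALL-SORT replicate 1 (adjusted p = 0.0622) or replicate 3 (0.0561). FLS1, which makes flavonols, had 368, 455 and 348 CPM in ALL-SORT, against 692, 566, 528 and 603 CPM in NO-SORT (log2 fold change -0.67, SE 0.14, adjusted p = 0.00434). DFR, which opens the anthocyanin branch, had 15.8, 14.1 and 14.4 CPM in ALL-SORT, against 70.2, 54.3, 40.5 and 39.6 CPM in NO-SORT (log2 fold change -1.84, SE 0.20, adjusted p = 5.72e-05). The 3 sorted values of DFR were nearly equal, and the lowest intact library was above them by more than 2-fold, whereas the sorted and intact values of FLS1 and TT4 lay closer. LDOX, the next anthocyanin enzyme, averaged 33.1 ± 1.59 CPM in ALL-SORT and 111 ± 9.29 CPM in NO-SORT (log2 fold change -1.80, SE 0.12, adjusted p = 9.58e-07), and TT7, the flavonoid 3′-hydroxylase, averaged 58.7 ± 4.53 CPM in ALL-SORT and 195 ± 8.31 CPM in NO-SORT (log2 fold change -1.78, SE 0.11, adjusted p = 6.51e-07). UGT75C1, which adds glucose to anthocyanins, averaged 10.99 ± 2.31 CPM in ALL-SORT and 42.9 ± 5.07 CPM in NO-SORT (log2 fold change -2.02, SE 0.17, adjusted p = 8.62e-06).

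The regulators of the pathway fell as well. MYB111, an activator of flavonol genes, had 4.80, 5.001 and 6.73 CPM in ALL-SORT, against 21.4, 27.6, 21.1 and 23.9 CPM in NO-SORT (log2 fold change -2.15, SE 0.18, adjusted p = 6.53e-06). PAP2 (MYB90), an activator of anthocyanin genes, had 3.48, 4.87 and 4.12 CPM in ALL-SORT, against 9.97, 24.6, 19.8 and 21.9 CPM in NO-SORT (log2 fold change -2.25, SE 0.31, adjusted p = 0.000311). NO-SORT replicate 1 was the lowest of the intact libraries for PAP2 and still above all 3 sorted ones. MYB12 averaged 12.4 ± 1.34 CPM in ALL-SORT and 21.98 ± 2.42 CPM in NO-SORT and the bHLH partner EGL3 averaged 19.5 ± 5.76 CPM in ALL-SORT and 46.8 ± 6.51 CPM in NO-SORT, with log2 fold changes of -0.88 and -1.32, in that order, and adjusted p-values of at most 0.000987. MYBL2, a repressor of the pathway that was looked up after the values were seen, fell too (3.72 ± 0.489 CPM in ALL-SORT and 13.7 ± 5.08 CPM in NO-SORT, log2 fold change -1.93, SE 0.30, adjusted p = 0.000722). The summed level of the list was 1696 to 2098 CPM in ALL-SORT and 2839 to 3825 CPM in NO-SORT. The sum was 3339 CPM in ALL-SORT replicate 4. Of the 20 genes, 10 were called lower when it was included; with each library left out in turn 14 to 16 were. Lignin synthesis, which shares its first steps with flavonoids, was split: of 17 genes 6 fell (35.3%) and 2 rose (11.8%), with a median of -0.29. Over all genes tested 14.4% fell and 15.3% rose. PAL1, the phenylalanine ammonia-lyase at the head of both pathways, had 79.2, 83.7 and 83.5 CPM in ALL-SORT, against 292, 181, 176 and 182 CPM in NO-SORT (log2 fold change -1.39, SE 0.18, adjusted p = 0.000199). Its sorted values were within a few CPM of each other, and NO-SORT replicate 1 stood above the other intact libraries. CCR2, a stress-associated cinnamoyl-CoA reductase, was among the 2 that rose (2.09, 9.46 and 9.25 CPM in ALL-SORT, against 0.326, 1.08, 0.977 and 1.90 CPM in NO-SORT, log2 fold change 2.61, SE 0.56, adjusted p = 0.00585).

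**Figure D3:**
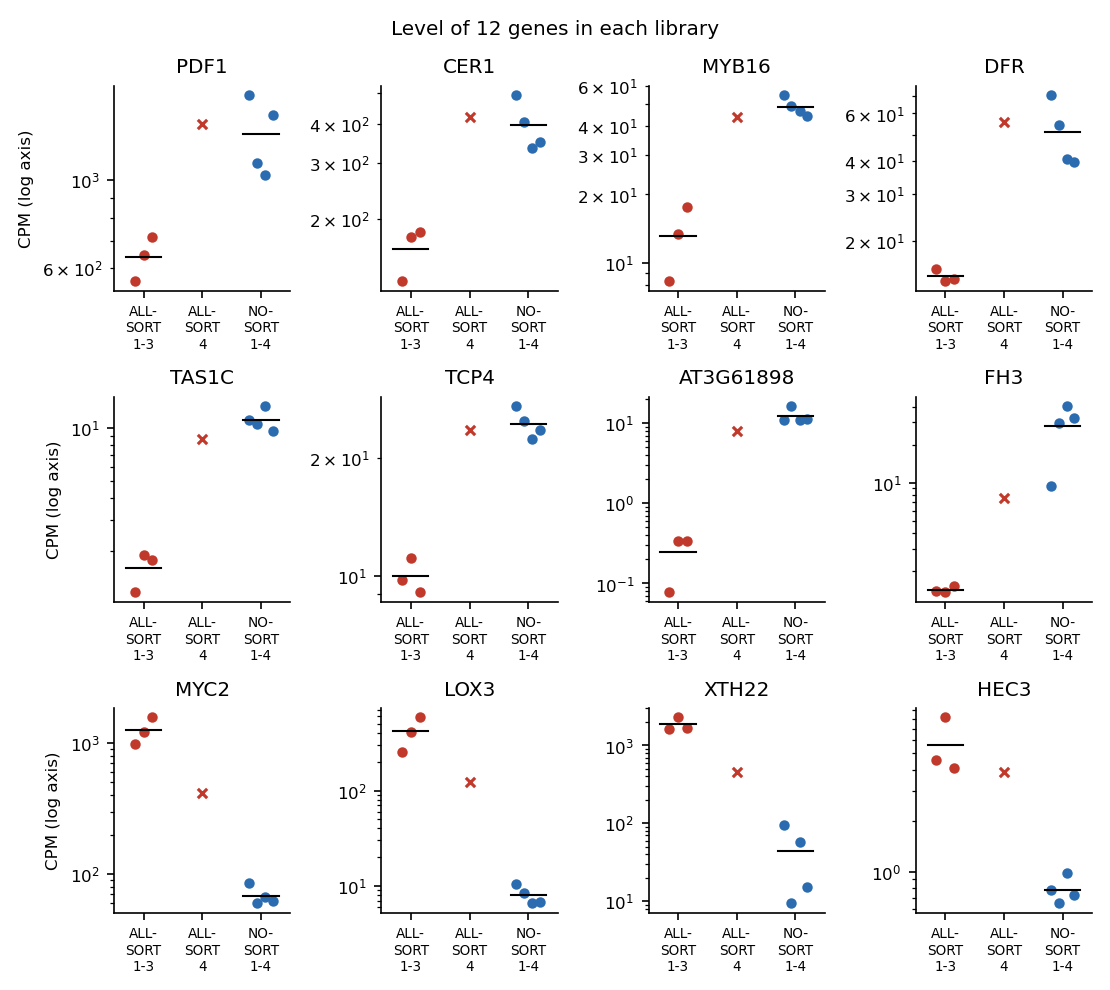
Each panel gives the CPM of 1 gene on a log axis in ALL-SORT replicates 1 to 3 (red dots), ALL-SORT replicate 4 (red cross) and NO-SORT replicates 1 to 4 (blue dots); black lines are means. In the 8 panels of the first 2 rows all 3 red dots lie below all blue dots, in the last row above them, and the cross is level with or near the blue dots for PDF1, CER1, MYB16, DFR, TAS1C and TCP4 and between the groups for MYC2, LOX3 and XTH22.

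Some RNAs that give rise to small RNAs, and some groups of genes with a site for a miRNA, were frequent among the decreases. Other groups with such a site were not. The groups described here were chosen after the values had been seen. Trans-acting small interfering RNA (ta-siRNA) loci make long non-coding transcripts that are cut by a miRNA and then turned into phased siRNAs; TAS1 and TAS2 are cut by miR173 and TAS3 by miR390. The sites of miR173 in TAS1C and TAS2 are shown because both transcripts fell strongly; they were read from the RefSeq TAIR10.1 genome, whose nuclear chromosomes are those of TAIR10, and are written as DNA, 5′ to 3′. In the miRNA, capitals mark the seed (bases 2 to 8), and in the sites they mark the bases that pair with the miRNA. The miRNA lies at chr3:8236161-8236182 (plus strand), the TAS1C site at chr2:16537890-16537911 and the TAS2 site at chr2:16539991-16540012 (both minus strand).
ath-miR173-5p: tTCGCTTGcagagagaaatcac
TAS1C site: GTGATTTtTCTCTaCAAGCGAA
TAS2 site: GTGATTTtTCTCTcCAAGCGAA
Each site pairs with 20 of the 22 bases, including the whole seed.

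All 8 annotated ta-siRNA loci that were tested fell at least 2-fold, with a median log2 fold change of -2.51. Over all genes tested 5.05% fell at least 2-fold. AT3G25795, annotated as TAS4 and with a site of miR828, had no count in ALL-SORT replicates 1 to 3, against 1.95, 4.44, 3.74 and 4.41 CPM in NO-SORT. Its level in ALL-SORT was at least 48.0-fold lower, with a floor of 3 counts over the group (adjusted p = 0.000132), and ALL-SORT replicate 4 had 1.43 CPM. The other 7 had log2 fold changes between -2.84 and -1.85. TAS1C had 1.16, 1.89 and 1.77 CPM in ALL-SORT, against 11.1, 10.5, 13.3 and 9.59 CPM in NO-SORT (log2 fold change -2.84, SE 0.24, adjusted p = 8.49e-06). TAS2 had 2.17, 3.65 and 3.36 CPM in ALL-SORT, against 9.51, 19.4, 19.5 and 15.7 CPM in NO-SORT (log2 fold change -2.45, SE 0.30, adjusted p = 0.000146). TAS3 had 3.25, 3.85 and 2.78 CPM in ALL-SORT, against 9.77, 15.8, 11.2 and 14.6 CPM in NO-SORT (log2 fold change -2.01, SE 0.23, adjusted p = 0.000101). For TAS1C, TAS2 and TAS3 the sorted values were together and the lowest intact value was more than 2-fold above the highest of them. TAS1A averaged 0.275 ± 0.109 CPM in ALL-SORT and 1.62 ± 0.488 CPM in NO-SORT, TAS1B 0.269 ± 0.123 CPM in ALL-SORT and 1.90 ± 0.451 CPM in NO-SORT, TAS3b 2.22 ± 0.671 CPM in ALL-SORT and 7.78 ± 1.58 CPM in NO-SORT and TASIR-ARF 1.24 ± 0.417 CPM in ALL-SORT and 5.01 ± 1.23 CPM in NO-SORT, with adjusted p-values between 0.000525 and 0.00265. Summed over the 8 loci, the level was 10.7 to 14.5 CPM in ALL-SORT replicates 1 to 3, 37.0 CPM in ALL-SORT replicate 4 and 46.7 to 67.0 CPM in NO-SORT. All 8 were called with any 1 of the 7 libraries left out, and 6 of 8 with ALL-SORT replicate 4 included, where TAS1C (adjusted p = 0.0553) and TAS1B (0.128) were not. TAS1C and TAS1B overlap loci on the other strand, and the TAS1 copies are similar in sequence, so their counts are uncertain singly.

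Pentatricopeptide repeat (PPR) proteins bind organelle RNAs, and some of their genes are targets of miR161, miR400 and ta-siRNAs. Of 258 PPR genes tested, 64 (24.8%) fell, 34 of them at least 2-fold, and none rose. The median was -0.42. Over all genes tested 14.4% fell, 5.05% at least 2-fold, 15.3% rose, and the median was -0.04. Near-complementary sites of the annotated miRNAs were searched in the spliced transcripts without gaps, scoring a mismatch 1 and a G:U pair 0.5, doubled at miRNA bases 2 to 13, up to a score of 4. Genes annotated with the words pentatricopeptide, PPR or tetratricopeptide that hold a site of miR161 or miR400 numbered 28, and 16 of them (57.1%) fell, with a median of -0.96 and a range from -1.70 to 0.24. PPR genes without such a site numbered 238, and 53 of them (22.3%) fell, with a median of -0.41. The word tetratricopeptide was used to choose the 28 but not the 238. The sets are therefore not complements, and their shares are not a like-for-like contrast. These counts depend on single libraries. The 64 became 39 without NO-SORT replicate 2, 39 without NO-SORT replicate 4 and 38 without ALL-SORT replicate 2, and the 16 became 8 without ALL-SORT replicate 2 and 9 without ALL-SORT replicate 3. With ALL-SORT replicate 4 included, 2 of the 258 and 1 of the 28 were called.

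RPF2 and RPF3, which process mitochondrial transcripts, are shown with their sites for miR161. RPF2 is annotated as an RNA processing factor without those words, so it is counted neither among the 28 nor among the 258. The miRNA lies at chr1:17825731-17825751 (plus strand), the RPF2 site at chr1:23205678-23205698 (minus strand) and the RPF3 site at chr1:23307498-23307518 (plus strand), with capitals as above.
ath-miR161.1: tGAAAGTGactacatcggggt
RPF2 site: ACCCtGATGTAtTCACTTTCA
RPF3 site: AtCCaaATGTAGTCACTTTCA
RPF2 had 4.18, 3.04 and 4.88 CPM in ALL-SORT, against 10.9, 8.39, 6.72 and 9.09 CPM in NO-SORT (log2 fold change -1.18, SE 0.24, adjusted p = 0.00399). RPF3 had 6.11, 3.58 and 4.04 CPM in ALL-SORT, against 11.4, 10.8, 13.4 and 13.1 CPM in NO-SORT (log2 fold change -1.47, SE 0.22, adjusted p = 0.00068). All sorted values of both lay below all intact ones. The PPR genes with such sites are close copies of each other, and how reads that fit several copies were counted is not given in the sources used here, so the value of a single member is uncertain.

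The TCP factors of the class that limits growth of leaves and petals are cut by miR319. Of 9 tested genes of any family with a miR319 site, 5 fell (55.6%) and 2 rose (22.2%), beside 14.4% and 15.3% of all genes tested. All 5 TCP genes with a site fell, with log2 fold changes between -1.34 and -0.64. Their sites are printed because the 5 genes moved together; the miRNA lies at chr2:17029870-17029890 (plus strand), and the sites at chr3:5063300-5063320 (plus strand) for TCP4 and, on the minus strand, chr4:10163402-10163422 for TCP2, chr1:19850522-19850542 for TCP3, chr1:10628989-10629009 for TCP24 and chr2:13221210-13221230 for TCP10.
ath-miR319c: tTGGACTGaagggagctcctt
TCP4 site: gAGGgGtcCCCTTCAGTCCAg
TCP2 site: cAGGgGgaCCCTTCAGTCCAA
TCP3 site: gAGGgGtcCCCTTCAGTCCAt
TCP24 site: tAGGgGgaCCCTTCAGTCCAA
TCP10 site: AAGGgGtaCCCTTCAGTCCAg
TCP4 had 9.75, 11.1 and 9.08 CPM in ALL-SORT, against 27.04, 24.7, 22.3 and 23.5 CPM in NO-SORT (log2 fold change -1.34, SE 0.13, adjusted p = 2.83e-05), and TCP2 had 27.4, 26.2 and 21.4 CPM in ALL-SORT, against 60.8, 56.6, 54.1 and 56.5 CPM in NO-SORT (log2 fold change -1.24, SE 0.12, adjusted p = 2.54e-05). Neither overlapped between the groups, and the lowest intact value of TCP4 was above 2 times its highest sorted one. TCP24 averaged 23.58 ± 3.498 CPM in ALL-SORT and 42.5 ± 1.96 CPM in NO-SORT, TCP3 14.4 ± 1.39 CPM in ALL-SORT and 26.9 ± 3.08 CPM in NO-SORT and TCP10 54.1 ± 2.59 CPM in ALL-SORT and 81.2 ± 16.3 CPM in NO-SORT, with adjusted p-values of at most 0.00948. In the whole TCP family 6 of 21 members fell and 4 rose; TCP9, which has no such site, was among those that rose (126 ± 19.4 CPM in ALL-SORT and 21.6 ± 1.57 CPM in NO-SORT, log2 fold change 2.48, SE 0.13, adjusted p = 1.65e-07). ALL-SORT replicate 4 had 23.58 CPM of TCP4 and 53.3 CPM of TCP2, and with it included 3 of the 21 TCP genes were called lower.

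**Figure D4:**
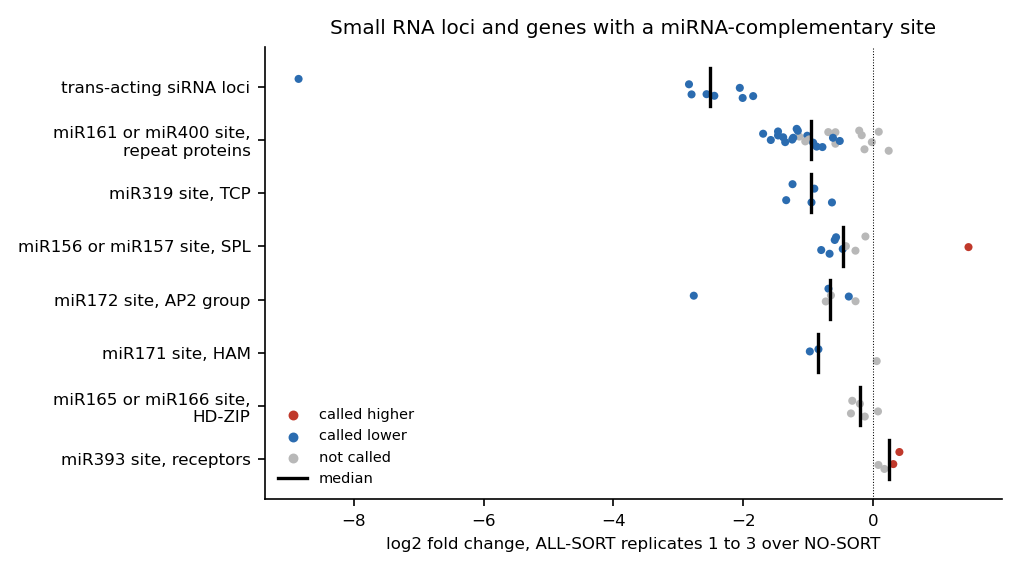
Each point is a locus or gene, placed by its log2 fold change in ALL-SORT replicates 1 to 3 over NO-SORT and coloured by its call; rows are ta-siRNA loci and gene groups with a site of the miRNA named, and black bars are medians. All 8 ta-siRNA loci and all 5 TCP genes with a miR319 site are blue, with AT3G25795 at a fitted -8.85 that depends on the prior count of the fit, while no HD-ZIP gene with a miR165 or miR166 site was called and 2 of 4 receptors with a miR393 site were called higher.

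Other miRNA target families moved less evenly, and the groups below are only parts of the genes with a site. Among all genes tested, with or without a site, 14.4% fell and 15.3% rose. Of all 46 tested genes with a miR156 site 7 fell (15.2%) and 12 rose (26.1%). Of 27 with a miR172 site 7 fell (25.9%) and 5 rose (18.5%). For miR159 and for miR447, none of 10 genes with a site fell and 4 rose. Of 9 SPL genes with a site of miR156 or miR157, which promote the change to the adult phase, 5 fell and 1, SPL13A, rose (log2 fold change 1.47). SPL4 had 109, 116 and 110.3 CPM in ALL-SORT, against 173, 177, 181 and 217 CPM in NO-SORT (log2 fold change -0.80, SE 0.12, adjusted p = 0.000593), and SPL10 averaged 37.9 ± 1.95 CPM in ALL-SORT and 58.3 ± 7.86 CPM in NO-SORT (log2 fold change -0.67, SE 0.12, adjusted p = 0.00245). Of 15 SPL factors in all, 6 fell; the number was 3 without NO-SORT replicate 2 and 2 with ALL-SORT replicate 4 included. Of 6 genes of the AP2 group with a miR172 site, 3 fell and none rose: SNZ (0.202 ± 0.162 CPM in ALL-SORT and 1.36 ± 0.341 CPM in NO-SORT, log2 fold change -2.76, SE 0.56, adjusted p = 0.00412), TOE2 (14.8 ± 2.03 CPM in ALL-SORT and 22.9 ± 1.34 CPM in NO-SORT, log2 fold change -0.69, SE 0.13, adjusted p = 0.00268) and AP2, whose ranges overlapped (log2 fold change -0.38, SE 0.13, adjusted p = 0.0449). AP2 was not called without NO-SORT replicate 1, 2 or 4 or without any 1 of the ALL-SORT replicates (adjusted p from 0.0695 to 0.13). HAM1 and HAM2, regulators of stem cells cut by miR171, fell (48.6 ± 0.0347 CPM in ALL-SORT and 84.0 ± 4.92 CPM in NO-SORT for HAM1; 34.1 ± 2.84 CPM in ALL-SORT and 64.7 ± 5.33 CPM in NO-SORT for HAM2; adjusted p = 0.00019 and 9.83e-05 in that order). The third HAM gene with a site was not called, nor was any of 5 class III HD-ZIP genes with a site of miR165 or miR166 (median -0.20). Of 4 auxin receptors with a miR393 site, 2 rose and none fell.

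Over all 788 tested genes with a site, leaving out 3 repeat-like miRNA families that matched over 100 genes each, 177 (22.5%) fell and 102 (12.9%) rose, beside 14.4% and 15.3% of all genes. With sites of a score up to 3, 76 of 237 genes (32.1%) fell and 26 (11%) rose. These totals include genes of the groups above that were chosen after the values were seen. Among the 788, for instance, 14 of 21 genes with a miR161 site fell. Shares without those groups were not computed. The search covered 427 annotated mature miRNAs with 349 different sequences. A matching site in the transcript is a description and does not show that the transcript was cut in these cells.

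Non-coding loci as a class were frequent among the decreases. At least 2-fold lower were 12 of 23 tested snoRNA loci (52.2%), 27 of 84 other ncRNA loci (32.1%), 5 of 17 miRNA precursor loci (29.4%), 21 of 106 pseudogenes (19.8%) and 26 of 153 long non-coding RNA loci (17%). The share among protein-coding genes was 850 of 18332 (4.6%). At least 2-fold higher were no snoRNA and no other ncRNA locus, 2 miRNA precursor loci (11.8%), 5 pseudogenes (4.7%) and 4 long non-coding RNA loci (2.6%), beside 7.5% of all genes. MIR163 had 8.90, 14.4 and 7.15 CPM in ALL-SORT, against 18.8, 20.9, 32.4 and 29.4 CPM in NO-SORT (log2 fold change -1.37, SE 0.27, adjusted p = 0.00346), and the groups did not overlap. Long non-coding RNAs can lie on the other strand of coding genes, and small precursors can share reads with hosts, so these loci are uncertain where they overlap others. The protein-coding genes that fell at least 2-fold had a median of 3 exons and 28% had a single exon; for those that rose the values were 2 exons and 35.3%, and for all genes tested 5 exons and 15%.

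Cells of the outer layer that form stomata and trichomes were represented by 18 markers, 17 of them tested. Of these 7 fell (41.2%) and 2 rose (11.8%), beside 14.4% and 15.3% of all genes tested. Their median was -0.59. SPCH, the factor that starts the stomatal lineage, had 3.87, 3.45 and 5.47 CPM in ALL-SORT, against 13.2, 10.01, 8.79 and 9.42 CPM in NO-SORT (log2 fold change -1.34, SE 0.23, adjusted p = 0.00133). TMM, a receptor of that lineage, had 13.2, 24.8 and 18.8 CPM in ALL-SORT, against 54.3, 38.05, 29.3 and 42.8 CPM in NO-SORT (log2 fold change -1.17, SE 0.23, adjusted p = 0.00366), and EPF2, its ligand, averaged 4.63 ± 1.61 CPM in ALL-SORT and 9.73 ± 1.40 CPM in NO-SORT (log2 fold change -1.12, SE 0.24, adjusted p = 0.00629). The sorted and intact values of these 3 genes, named chiefly for their change, did not overlap, as for 38.3% of all genes tested. The summed level of the list was 224 to 245 CPM in ALL-SORT and 274 to 341 CPM in NO-SORT, and 2 of the 17 were called lower with ALL-SORT replicate 4 included.

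Among clock genes 5 of 19 fell (26.3%) and 3 rose (15.8%), beside 14.4% and 15.3% of all genes tested. Their median was -0.33. PRR3, which stabilises the evening protein TOC1, had 20.5, 9.80 and 13.1 CPM in ALL-SORT, against 35.4, 40.8, 32.8 and 42.0 CPM in NO-SORT (log2 fold change -1.44, SE 0.23, adjusted p = 0.000916). LNK1, a coactivator of clock genes, averaged 14.6 ± 4.11 CPM in ALL-SORT and 34.4 ± 5.63 CPM in NO-SORT (log2 fold change -1.30, SE 0.21, adjusted p = 0.00114). The morning genes CCA1 (75.0 ± 14.4 CPM in ALL-SORT and 97.4 ± 13.9 CPM in NO-SORT, log2 fold change -0.43, SE 0.16, adjusted p = 0.0636) and LHY (209.8 ± 25.2 CPM in ALL-SORT and 255 ± 41.5 CPM in NO-SORT, log2 fold change -0.33, SE 0.15, adjusted p = 0.11) were not called, with ranges that overlapped. CCA1 did pass the threshold without ALL-SORT replicate 1 (adjusted p = 0.0136) and, among other settings, with library totals (0.0191), DESeq2 (0.0451) and limma-voom (0.0496), and LHY with library totals (0.0258). The time of day of collection is not given in the labels. With ALL-SORT replicate 4 included, 4 clock genes were called lower and 3 higher.

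Growth-related genes were lowered in part, beside 14.4% of all genes tested that fell and 15.3% that rose. Of 9 growth-regulating factors 5 fell and 1 rose; GRF7 had 19.5, 16.1 and 15.1 CPM in ALL-SORT, against 31.9, 39.9, 31.5 and 45.0 CPM in NO-SORT (log2 fold change -1.19, SE 0.17, adjusted p = 0.000427), and the number that fell was 3 without ALL-SORT replicate 2. Expansins, which loosen walls, had 5 of 15 members lower and none higher (3 lower without NO-SORT replicate 2 or without ALL-SORT replicate 2); EXPB3 had 98.3, 121 and 112 CPM in ALL-SORT, against 229, 259.9, 224 and 234 CPM in NO-SORT (log2 fold change -1.15, SE 0.12, adjusted p = 3.6e-05). A pair of small groups was picked after the values were seen. Of 16 tested CLE peptide genes 6 fell and none rose, with CLE16 at 2.19 ± 0.104 CPM in ALL-SORT and 6.98 ± 1.005 CPM in NO-SORT (log2 fold change -1.72, SE 0.23, adjusted p = 0.000251). Of 11 ovate family genes 6 fell and 1 rose, with OFP18 at 2.77 ± 0.167 CPM in ALL-SORT and 8.06 ± 1.54 CPM in NO-SORT (log2 fold change -1.59, SE 0.22, adjusted p = 0.000409). Core histones, counted here for 27 genes, had 6 that fell and none that rose; the number that fell was 14 under scaling by library totals. HTB3, an H2B histone, had 21.6, 15.7 and 19.7 CPM in ALL-SORT, against 32.5, 36.4, 45.9 and 40.5 CPM in NO-SORT (log2 fold change -1.09, SE 0.17, adjusted p = 0.000685) and HIS4, an H4 histone, averaged 127 ± 13.5 CPM in ALL-SORT and 252 ± 40.3 CPM in NO-SORT (log2 fold change -1.04, SE 0.16, adjusted p = 0.00072). Histone genes are near-identical copies, so single values are uncertain.

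Few genes of the cell cycle and of photosynthesis were called, beside 29.7% of all genes tested. Of 31 DNA replication genes 1 fell, ORC1A (3.03 ± 0.597 CPM in ALL-SORT and 6.13 ± 1.103 CPM in NO-SORT, log2 fold change -1.06, SE 0.24, adjusted p = 0.00784), and none rose. Without ALL-SORT replicate 1, however, 8 replication genes were called lower, and under scaling by library totals 10. Of 32 mitosis genes 3 fell and 3 rose, and 8 fell without ALL-SORT replicate 1 but 1 without ALL-SORT replicate 2 or 3 or NO-SORT replicate 2, 3 or 4. Of 49 nuclear photosynthesis genes 4 fell and 2 rose, with a median of -0.03. Without NO-SORT replicate 1, 8 of them were called higher, and without ALL-SORT replicate 2, 7 were called lower. PSAD-2, of photosystem I, was the lowest (79.7 ± 10.7 CPM in ALL-SORT and 133 ± 12.4 CPM in NO-SORT, log2 fold change -0.80, SE 0.13, adjusted p = 0.000909). RBCS1A, a small subunit of Rubisco and the gene with the highest level per kilobase in NO-SORT of all genes named here (2464 CPM per kb in ALL-SORT and 3085 in NO-SORT), had 2529, 3741 and 3104 CPM in ALL-SORT, against 3922, 4238, 3639 and 3849.8 CPM in NO-SORT and was not called (log2 fold change -0.38, SE 0.14, adjusted p = 0.0696); it was called without ALL-SORT replicate 2 (adjusted p = 0.0184), with library totals (0.0124) and with limma-voom (0.0435).

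Other lists are given beside 15.3% of all genes tested that rose and 14.4% that fell. For aquaporins these shares were 16.7% and 11.1%, for tubulins 26.7% and 6.7% and for chlorophyll synthesis 23.5% and 5.9%. Indolic defence genes had 21.4% and 14.3% in that order, and type-A response regulators of cytokinin, with 8 genes tested, 12.5% and 37.5%. Chlorophyll synthesis had 4 of 17 genes higher and 1 lower, cellulose synthesis 1 of 15 lower, aquaporins 3 of 18 higher and 2 lower, tubulins 4 of 15 higher and 1 lower, and ribosome biogenesis 3 of 13 higher. Ribosomal proteins, a group added later, had 7 of 94 higher and 2 lower. Several of these numbers moved with single libraries. Leaving out 1 library gave 0 to 4 raised tubulins, 1 to 4 raised aquaporins, 2 to 6 raised chlorophyll genes and 1 to 3 raised ribosome biogenesis genes. Brassinosteroid synthesis had 1 of 10 genes higher, type-A response regulators of cytokinin 3 of 8 lower and 1 higher, aliphatic glucosinolate genes 1 of 5 lower, indolic defence genes 3 of 14 higher and 2 lower, D-type cyclins 1 of 9 in each direction, and auxin response factors 3 of 15 lower. Without ALL-SORT replicate 1, 7 indolic defence genes were called higher.

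Of the markers of inner tissues, 10.5% fell for xylem and cambium, 18.8% for phloem and 16.7% for tapetum and pollen. The shares that rose were 10.5%, 6.2% and 8.3% in that order. Of all genes tested, 14.4% fell and 15.3% rose. The medians of these 3 lists were below 0. For xylem and cambium 2 of 19 markers fell and 2 rose, with a median of -0.60 and summed levels of 555 to 754 CPM in ALL-SORT and 520.0 to 798 CPM in NO-SORT. For phloem 3 of 16 fell and 1 rose, with a median of -0.15 and sums of 365 to 611 CPM and 449 to 532 CPM in that order. For tapetum and pollen, cells of the anther, 2 of 12 fell and 1 rose, with a median of -1.57, lower than that of the epidermis list, and sums of 128 to 167 CPM in ALL-SORT and 158 to 450.1 CPM in NO-SORT. Without ALL-SORT replicate 3, 8 xylem and 6 phloem markers were called lower. The summed ranges of these 3 lists overlapped between the groups, whereas those of the epidermis list did not. The number of anther markers called lower was 10 without NO-SORT replicate 1 and 0 without ALL-SORT replicate 2.

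Identity genes of flowers and meristems were called about as often as all genes tested, of which 29.7% were called. Of 45 tested, 31 were not called, 10 fell (22.2%), none of them 2-fold, and 4 rose (8.9%). Of all genes tested 14.4% fell and 15.3% rose. YAB3, of the abaxial side of organs, had 50.6, 60.9 and 54.5 CPM in ALL-SORT, against 87.9, 87.4, 71.7 and 85.6 CPM in NO-SORT (log2 fold change -0.64, SE 0.12, adjusted p = 0.0021). AS1, of leaf and petal shape, averaged 169 ± 33.8 CPM in ALL-SORT and 261 ± 26.3 CPM in NO-SORT (log2 fold change -0.69, SE 0.15, adjusted p = 0.00547), and KNAT1, of the stem, averaged 62.7 ± 7.93 CPM in ALL-SORT and 102 ± 12.1 CPM in NO-SORT (log2 fold change -0.75, SE 0.13, adjusted p = 0.00188). LFY, which directs young flower primordia, was among those that rose (73.0, 78.8 and 83.8 CPM in ALL-SORT, against 55.2, 33.5, 34.7 and 45.1 CPM in NO-SORT, log2 fold change 0.85, SE 0.16, adjusted p = 0.00301), with all sorted values above all intact ones. The 10 became 6 without NO-SORT replicate 2 or without ALL-SORT replicate 1, and 3 with ALL-SORT replicate 4 included.

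Genes of the gynoecium and ovule rose more often than they fell. Of 18 tested markers 11 rose (61.1%), 7 of them at least 2-fold, and the median was 0.68. Over all genes tested 15.3% rose, 7.5% at least 2-fold, and 14.4% fell. Only ALC fell (log2 fold change -0.37), a call that was lost in 6 of the 7 fits that left out 1 library. HEC3, a bHLH factor of the stigma and transmitting tract, had 4.56, 8.18 and 4.12 CPM in ALL-SORT, against 0.782, 0.649, 0.977 and 0.725 CPM in NO-SORT (log2 fold change 2.78, SE 0.33, adjusted p = 0.00013). HEC2 averaged 17.1 ± 5.22 CPM in ALL-SORT and 5.22 ± 1.70 CPM in NO-SORT (log2 fold change 1.65, SE 0.27, adjusted p = 0.0012), SPT, their partner, averaged 69.6 ± 6.77 CPM in ALL-SORT and 31.8 ± 1.32 CPM in NO-SORT (log2 fold change 1.08, SE 0.11, adjusted p = 3.06e-05), and STY1, of the style, averaged 24.5 ± 5.75 CPM in ALL-SORT and 8.78 ± 1.52 CPM in NO-SORT (log2 fold change 1.42, SE 0.20, adjusted p = 0.000357). The sorted values of these 4 genes, named chiefly for their change, lay above the intact ones in every library. Ranges did not overlap for 38.3% of all genes tested. In ALL-SORT replicate 4 the 4 genes had 3.86, 9.29, 44.1 and 11.7 CPM in the same order. SHP1, the paralog of SHP2, had 24.2, 28.3 and 12.8 CPM in ALL-SORT, against 5.15, 10.6, 12.3 and 6.52 CPM in NO-SORT (log2 fold change 1.28, SE 0.33, adjusted p = 0.0148), and was not called without ALL-SORT replicate 2 (adjusted p = 0.0713). The summed level of the list was 499 to 569.8 CPM in ALL-SORT and 427 to 435 CPM in NO-SORT; its 11 calls became 7 without ALL-SORT replicate 2 and 9 with ALL-SORT replicate 4 included. The same sum was 1104 to 1514 CPM in YFP-POS and 326 to 351 CPM in YFP-NEG, and its part in these increases was not tested.

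Most genes of jasmonate synthesis and signalling rose. Of 14 tested synthesis genes 11 rose (78.6%) and none fell, with a median of 1.39. Over all genes tested 15.3% rose and 14.4% fell. LOX3, a lipoxygenase of the first step, had 256.3, 409 and 586 CPM in ALL-SORT, against 10.6, 8.50, 6.55 and 6.804 CPM in NO-SORT (log2 fold change 5.63, SE 0.28, adjusted p = 1.54e-07). LOX4 averaged 237 ± 85.3 CPM in ALL-SORT and 2.29 ± 0.640 CPM in NO-SORT, the allene oxide synthase AOS 184 ± 64.3 CPM in ALL-SORT and 12.2 ± 1.66 CPM in NO-SORT, the cyclase AOC3 389 ± 124 CPM in ALL-SORT and 10.5 ± 2.33 CPM in NO-SORT and the ligase OPCL1 294 ± 88.3 CPM in ALL-SORT and 12.8 ± 1.68 CPM in NO-SORT, with log2 fold changes of 6.63, 3.85, 5.16 and 4.46 in that order and adjusted p-values of at most 7.12e-07. Of 18 signalling genes 13 rose, with a median of 1.72. The central factor MYC2 had 989.7, 1219.6 and 1567 CPM in ALL-SORT, against 85.6, 59.9, 66.7 and 62.2 CPM in NO-SORT (log2 fold change 4.14, SE 0.18, adjusted p = 7.38e-08). The repressors that jasmonate both removes and induces rose with it: 10 of 11 JAZ genes were higher, among them JAZ1 (523 ± 39.5 CPM in ALL-SORT and 25.5 ± 6.75 CPM in NO-SORT) and JAZ8 (21.0 ± 9.70 CPM in ALL-SORT and 0.255 ± 0.189 CPM in NO-SORT). The sorted values of LOX3 and MYC2 were at least 10 times the intact ones in every library. ALL-SORT replicate 4 had 122 CPM of LOX3 and 417 CPM of MYC2, between the groups. All 11 synthesis genes and 11 of the 18 signalling genes were called with it included.

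The 10 largest increases were stress regulators and small chaperones. AT1G19210 and AT1G22810, of the ERF class, had 335, 482 and 373 CPM in ALL-SORT, against 0.521, 0.162, 0.230 and 0.223 CPM in NO-SORT for AT1G19210 and 44.5, 93.4 and 87.1 CPM in ALL-SORT, against 0.0651, 0, 0.0575 and 0 CPM in NO-SORT for AT1G22810. CML37, a calmodulin-like protein, had 197, 348 and 341 CPM in ALL-SORT, against 0.195, 0.271, 0.0575 and 0.0558 CPM in NO-SORT, and RRTF1 had 889, 1214 and 1259 CPM in ALL-SORT, against 1.63, 0.541, 0.460 and 0.446 CPM in NO-SORT. MYB15 had 34.7, 67.0 and 68.6 CPM in ALL-SORT, AGC2-1, a protein kinase, had 54.0, 96.3 and 163 CPM, and PUB22, a ubiquitin ligase of immunity, had 6.58, 14.9 and 15.98 CPM, against at most 0.112 CPM in any NO-SORT library. PUB22 had no count in any NO-SORT library, so its level in ALL-SORT was at least 288-fold higher, with a floor of 3 counts over the group. AT1G22810 and MYB15 had 2 counts each in NO-SORT, HSP17.4 and HSP22 had 1 each, and no fold is given for these. The fitted fold over NO-SORT, which depends on the prior count of the fit, was 1861 for CML37, 1434 for RRTF1 and 1345 for AT1G19210, all resting on few counts in NO-SORT.

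All 27 tested heat shock genes rose, 24 of them at least 2-fold, with a median of 3.54; 19 were called with ALL-SORT replicate 4 included and 24 to 26 with each library left out in turn. HSP17.6A had 147, 193 and 153 CPM in ALL-SORT, against 0.195, 0.0541, 0.115 and 0.0558 CPM in NO-SORT, HSP22 had 31.5, 37.0 and 25.6 CPM in ALL-SORT, and HSP17.4 had 32.2, 48.0 and 48.7 CPM in ALL-SORT. HSP101, which dissolves protein aggregates, had 473, 355 and 709.6 CPM in ALL-SORT, against 21.3, 23.4, 18.7 and 15.8 CPM in NO-SORT (log2 fold change 4.64, SE 0.24, adjusted p = 1.84e-07), and the regulator HSFA2 averaged 97.6 ± 19.8 CPM in ALL-SORT and 3.201 ± 1.40 CPM in NO-SORT (log2 fold change 4.88, SE 0.30, adjusted p = 6.37e-07). Stress genes of the endoplasmic reticulum were called in both directions. Of 15 genes of the unfolded protein response 4 rose (26.7%) and 3 fell (20%), beside 15.3% and 14.4% of all genes tested. Their median was -0.19.

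Regulators of stress were raised as families. Of 42 WRKY factors 22 rose and 2 fell, of 41 ERF and DREB factors 30 rose and 1 fell, all 7 ZAT zinc fingers rose, and 9 of 10 calmodulin-like proteins rose; each family had 15.3% as its background. With ALL-SORT replicate 4 included the numbers raised were 18, 26, 7 and 8 in that order. Pattern-triggered immunity had 22 of 28 genes higher and none lower, with a median of 1.84. The most abundant of the genes that rose at least 2-fold were AT1G18740, of unknown function, SRC2, XTH22 (TCH4), which remodels xyloglucan in walls, and AT4G29780, annotated as a nuclease, together with the mitochondrial locus ATMG01390. AT1G18740 had 2588, 3256 and 3665 CPM in ALL-SORT, against 44.3, 20.3, 31.1 and 25.2 CPM in NO-SORT (log2 fold change 6.66, SE 0.27, adjusted p = 4.88e-08). XTH22 had 1613, 2301 and 1695 CPM in ALL-SORT, against 94.9, 9.36, 57.7 and 15.1 CPM in NO-SORT (log2 fold change 5.36, SE 0.68, adjusted p = 0.000197). The intact libraries spread about 10-fold for XTH22, with NO-SORT replicates 1 and 3 above 2 and 4, and remained far below the sorted ones.

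Of 18 xyloglucan endotransglucosylases 10 rose and 3 fell; XTH18 averaged 23.55 ± 8.19 CPM in ALL-SORT and 0.135 ± 0.167 CPM in NO-SORT. SRC2 averaged 1911 ± 334 CPM in ALL-SORT and 73.8 ± 16.8 CPM in NO-SORT, AT4G29780 1809 ± 289.8 CPM in ALL-SORT and 12.8 ± 8.44 CPM in NO-SORT and ATMG01390 2039 ± 250.3 CPM in ALL-SORT and 864 ± 111 CPM in NO-SORT, with log2 fold changes of 4.64, 7.10 and 1.18 in that order and adjusted p-values of at most 0.000127. The other wall families were mixed: fasciclin and arabinogalactan proteins had 7 of 36 higher and 9 lower (5 lower without ALL-SORT replicate 1), pectin methylesterases 2 of 9 in each direction, and cellulose synthase-like genes 6 of 23 higher and 7 lower. Among detoxifying families, 6 of 15 tau glutathione transferases rose and 2 fell, 14 of 44 UDP-glucosyltransferases rose and 7 fell, 3 of 6 class III peroxidases rose and 1 fell, and 16 of 97 cytochromes P450, a group added later, rose and 27 fell (11 and 4 with ALL-SORT replicate 4 included). The 27 became 15 without NO-SORT replicate 2 or without ALL-SORT replicate 2. Lipid transfer proteins, also added later, had 5 of 48 higher and 12 lower (3 and 6 with ALL-SORT replicate 4 included), and 20 lower without NO-SORT replicate 1. B3 REM factors had 1 of 8 higher. Of all genes tested 15.3% rose and 14.4% fell, and the 16.5% of cytochromes P450 that rose were close to that share.

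Hormone and nutrient responses other than jasmonate were raised in part, beside 15.3% of all genes tested that rose and 14.4% that fell. Gibberellin genes were near these shares, with 22.2% higher and 16.7% lower. Auxin response genes had 11 of 39 higher and 2 lower; IAA2 had 31.3, 40.01 and 46.5 CPM in ALL-SORT, against 7.43, 7.42, 9.65 and 7.75 CPM in NO-SORT (log2 fold change 2.22, SE 0.16, adjusted p = 2.9e-06), and GH3.3, which conjugates auxin, averaged 219 ± 31.9 CPM in ALL-SORT and 63.1 ± 7.35 CPM in NO-SORT (log2 fold change 1.74, SE 0.13, adjusted p = 3.05e-06). SAUR genes had 11 of 30 higher and 6 lower, and the number that fell was 2 without NO-SORT replicate 2 or 4. For abscisic acid and drought 8 of 20 rose and 4 fell; NCED3, the key enzyme of abscisic acid synthesis, averaged 102 ± 15.6 CPM in ALL-SORT and 18.3 ± 3.299 CPM in NO-SORT (log2 fold change 2.41, SE 0.16, adjusted p = 1.26e-06), while RD20, a drought-induced caleosin, fell (125 ± 8.07 CPM in ALL-SORT and 218 ± 23.97 CPM in NO-SORT, log2 fold change -0.86, SE 0.13, adjusted p = 0.000623). For gibberellin 4 of 18 rose and 3 fell, with GA2OX6, which inactivates gibberellin, at 4.49, 9.53 and 6.64 CPM in ALL-SORT, against 0.0651, 0.216, 0 and 0.0558 CPM in NO-SORT (log2 fold change 6.14, SE 0.55, adjusted p = 1.31e-05). Of 13 hypoxia genes 9 rose and none fell; SAD6 averaged 119 ± 13.4 CPM in ALL-SORT and 26.2 ± 12.7 CPM in NO-SORT (log2 fold change 2.13, SE 0.27, adjusted p = 0.000192). Carbon starvation genes had 5 of 17 higher, sugar transport 4 of 14 higher, and nitrogen and sulfur assimilation 5 of 13 higher and 1 lower, with the nitrate reductase NIA2 at 72.4 ± 17.0 CPM in ALL-SORT and 18.1 ± 5.05 CPM in NO-SORT (log2 fold change 1.95, SE 0.21, adjusted p = 5.72e-05).

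Genes often used as a reference for quantitative PCR were called in part. Of 12 tested, 5 rose (41.7%) and none fell, with a median of 0.29, beside 15.3% and 14.4% of all genes tested. The number that rose was 3 without NO-SORT replicate 2 or 4 and 8 without ALL-SORT replicate 1. UBC9 had 169, 219 and 189.9 CPM in ALL-SORT, against 88.7, 99.9, 112 and 100.1 CPM in NO-SORT (log2 fold change 0.89, SE 0.13, adjusted p = 0.000462), in groups that did not overlap. ACT2 had 245, 306 and 291 CPM in ALL-SORT, against 264, 268, 258 and 239 CPM in NO-SORT and was not called (log2 fold change 0.07, SE 0.11, adjusted p = 0.678); under scaling by library totals its estimate was -0.08.

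Promoters of the genes were read from RefSeq TAIR10.1 as 250 bases before to 50 after the annotated start, for 1393 genes that rose at least 2-fold, 850 that fell at least 2-fold and 18331 of all tested. Motifs were searched on both strands, and a match describes the letters and not a bound site. The rapid stress element CGCGTT was found in 11.5% of promoters of genes that rose, 1.6% of those that fell and 3.8% of all. The longer W box, TTGACC or TTGACT, the sequence that WRKY factors bind, was found in 42.6%, 28.1% and 31.8% in that order; its core TTGAC, contained in it, in 60.7%, 47.4% and 50%. The heat shock element core GAANNTTC was found in 18.3%, 9.4% and 11.5%. The G box CACGTG, which MYC2 can bind, was found in 12.1%, 9.3% and 9.2%.

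Promoters of both changed groups held fewer site II elements, TGGGCC or TGGGCT, which are known from genes of ribosomal and organelle proteins: 15.1% for genes that rose, 16.8% for those that fell and 26.7% for all. The telo box AAACCCTA, of similar gene classes, was found in 2.2%, 4.2% and 5.6%. The L1 box, TAAATGCA or TAAATGTA, the binding sequence of ATML1 and PDF2, was added after the values were seen and was found in 5% of promoters of genes that rose, 6.4% of those that fell and 5.2% of all. The evening element AAAATATCT (3.9%, 3.4% and 3%), the mitotic element core AACGG (24% of promoters of genes that rose, 225 of the 850 of genes that fell and 26.8% of all), the I box GATAAG (16.2%, 14.5% and 14.7%), the E2F sites TTTCCCGC or TTTGGCGC (0.9%, 1.3% and 1.4%), the GCC box GCCGCC (3.2%, 2.5% and 2.7%) and the histone octamer CGCGGATC (0.2% in each) were close to their shares among all promoters.

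**Figure D5:**
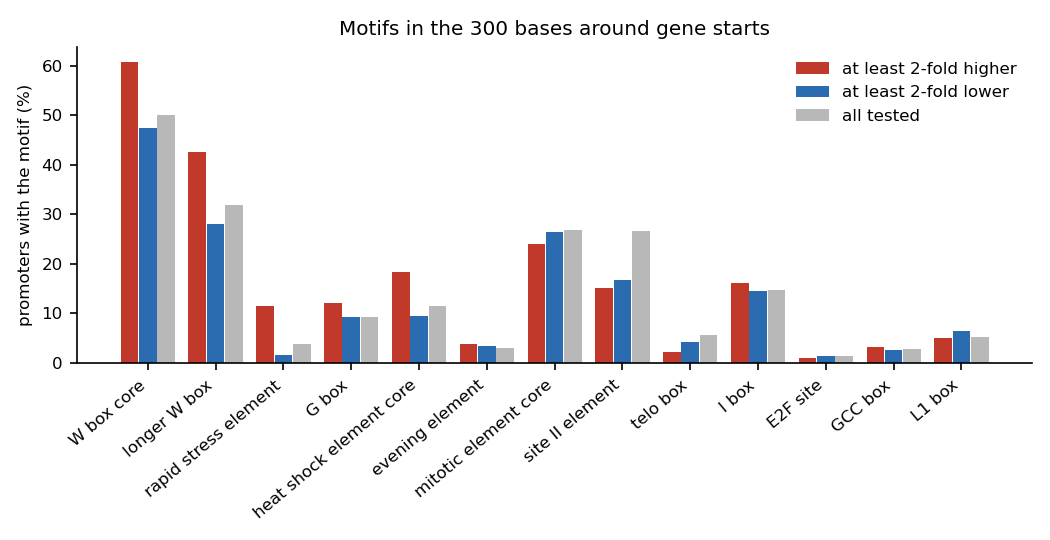
Bars give the percentage of promoters, from 250 bases before to 50 after the start, that hold each motif on either strand, for genes at least 2-fold higher (red), at least 2-fold lower (blue) and all tested (grey). The red bar exceeds the grey one for the rapid stress element (11.5% and 3.8%), the W boxes and the heat shock element, and both coloured bars are below the grey one for the site II element.

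The promoters of AT1G19210 and HSP17.4 are shown because they hold several of these motifs. They are not typical of the 10 largest increases: in the 200 bases before the start AT1G19210 alone of the 10 holds a rapid stress element, HSP17.4 and CML37 alone hold a heat shock element core, and HSP22 and HSP17.6A hold none. Each is given as the 200 bases before the annotated start, 5′ to 3′ along the gene, from RefSeq TAIR10.1: chr1:6627689-6627888 (minus strand) for AT1G19210 and chr3:16984868-16985067 (minus strand) for HSP17.4. Capitals mark the longer W box, the rapid stress element and the G box in AT1G19210, and the heat shock element core and a site II element in HSP17.4, on either strand.
AT1G19210 promoter: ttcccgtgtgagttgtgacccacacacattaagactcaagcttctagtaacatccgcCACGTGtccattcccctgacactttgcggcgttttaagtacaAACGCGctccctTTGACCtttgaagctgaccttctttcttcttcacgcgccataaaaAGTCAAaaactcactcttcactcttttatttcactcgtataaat
HSP17.4 promoter: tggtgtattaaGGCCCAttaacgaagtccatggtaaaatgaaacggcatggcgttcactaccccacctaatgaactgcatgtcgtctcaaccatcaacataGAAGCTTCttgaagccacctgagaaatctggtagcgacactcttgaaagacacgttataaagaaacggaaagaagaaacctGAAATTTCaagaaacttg
The first stretch holds 1 rapid stress element, 2 longer W boxes and 1 G box, and the second 2 heat shock element cores and 1 site II element.

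The fractions sorted on the reporter went through the same steps and give the lowered genes in other cell mixtures; they share the NO-SORT libraries with the comparison above, so their values are given side by side and not as further support. The 12 epidermis markers summed to 1105 to 1328 CPM in YFP-NEG and 2813 to 3576 CPM in YFP-POS, beside 1619 to 2017 CPM in ALL-SORT replicates 1 to 3 and 3015 to 4510.4 CPM in NO-SORT. The YFP-POS and NO-SORT ranges overlapped, and YFP-NEG was below all others. CER1 ranged over 58.9 to 86.0 CPM in YFP-NEG and 374 to 581 CPM in YFP-POS. The lipase AT2G42990 ranged over 6.20 to 10.9 CPM in YFP-NEG and 2.40 to 5.01 CPM in YFP-POS. The anthocyanin enzyme DFR ranged over 14.4 to 26.7 CPM in YFP-NEG and 4.13 to 10.9 CPM in YFP-POS, whereas FLS1 ranged over 237 to 252 CPM and 743 to 1191 CPM in that order. The 8 ta-siRNA loci summed to 14.9 to 19.7 CPM in YFP-NEG and 7.90 to 8.90 CPM in YFP-POS, below all NO-SORT libraries in both. The values of PDF2, CER1 and FLS1 in YFP-POS thus reached those of NO-SORT, while AT2G42990 and DFR were below all NO-SORT libraries in every sorted library other than ALL-SORT replicate 4. The summed ta-siRNA loci were below all NO-SORT libraries in every sorted library, ALL-SORT replicate 4 included.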

How the data were processed

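RNA-seq counts of the 15 libraries were taken as the authors deposited them, as whole numbers of reads per locus for 33602 loci, not normalized. Per the submitters' processing notes the build was TAIR10, and FastQC, TopHat2 2.0.10, HTSeq, edgeR, DESeq2 and Cufflinks 2.2.1 were named, without versions for the others or their roles. How reads that fit several loci, or either strand, were counted is not given in the sources used here. Each library was sequenced on a pair of lanes, per the labels. The titles number the replicates as biological without saying what was separate between them, so p-values measure the spread between these libraries.

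Counts of ALL-SORT replicates 1 to 3 and NO-SORT replicates 1 to 4 were filtered with filterByExpr, scaled by TMM and tested with glmQLFTest in edgeR 4.0.16 (R 4.3.3, limma 3.58.1), with Benjamini-Hochberg adjustment over 18958 genes. Calls needed an adjusted p below 0.05. Standard errors came from dividing each log2 fold change by the root of its F. The levels are CPM from TMM over all 15 libraries. Same-numbered libraries did not deviate together, so no replicate block was used. Of the loci, 32835 (97.7%) matched RefSeq TAIR10.1, which gave names, lengths and sequences. The list symbols STL1, H2B, BRX1, HSP17.6 and LAT52 had no unique match. On simulated counts of 18788 genes for this comparison, 88% of genes changed by -2 on the log2 scale, 77.1% by -1, 68% by 1 and 98% by 2 were called, and 5.75% of 174 calls were of unchanged genes. Each size of change was given to 48 or 50 genes. That is a far smaller share than the 29.7% called in the data, so these rates need not hold there.

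Genes were named by a rule: the 12 largest decreases and 10 largest increases with an adjusted p below 0.001, no overlap of CPM between the groups and 10 CPM or more on average where higher; the 8 most abundant genes in NO-SORT of those at least 2-fold lower and the 5 most abundant in ALL-SORT of those at least 2-fold higher; SHP2, AP1 and CAL; and members of the lists. The list members named were chiefly the called members with the largest change in each direction and the most abundant member of a list. Members and lists were chosen with earlier results of these data known. TAS loci (by symbol or synonym), RPF2, RPF3, HAM1, HAM2, SNZ, TOE2, RXF26, CLE16, OFP18, MIR163 and MYBL2 were chosen after their values were seen. Alternatives were other scalings and filters, DESeq2 1.42.0, limma-voom, a replicate block, other sets of libraries and an adjusted p under 0.01.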

Additional observations from a re-analysis of the deposited data

Results flagged for a closer look

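Among 218 values examined in NO-SORT, 18 had 1 library far from the other 3 by Dixon's criterion, which chance meets in about 1 of 20 groups. NO-SORT replicate 1 was the highest in 8 of them, at 99.0 CPM for SRC2 (64.8 to 65.8 in the others), 28.9 for AT1G11410 (17.0 to 17.2), 45.1 for SAD6 (17.2 to 21.8), 292 for PAL1 (176 to 182), 199 for POK2 (117 to 124) and 1.63 for RRTF1 (0.446 to 0.541). Its summed level was 2351 CPM for the mitosis list (1898 to 1963 in the others) and 660.9 CPM for the immunity list (487 to 501.3).

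NO-SORT replicate 3 stood apart in 8. It was lowest for AS1 (222 CPM, others 269 to 278), LTP1 (978, others 1190 to 1230) and YAB3 (71.7, others 85.6 to 87.9). It was highest for IAA2 (9.65, others 7.42 to 7.75), HEC2 (7.76, others 4.11 to 4.52), HEC1 (3.62, others 1.84 to 2.12), the summed gynoecium list (435.1, others 427 to 428.3) and HSP17.4 (0.0575, the others at 0). NO-SORT replicate 2 was highest for AT3G61898 (16.3 CPM, others 10.9 to 11.3), and replicate 4 for HSP22 (0.0558, the others at 0). The last value of HSP22 and that of HSP17.4 are single counts.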

How the results depend on the processing

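With ALL-SORT replicate 4 included, edgeR called 2518 genes in place of 5632, 1844 higher and 674 lower, and 1347 at least 2-fold, 227 of them lower. At the stricter threshold, 4-fold with an adjusted p below 0.001, it then called 301 genes, 301 higher and 0 lower, while 6115 genes had an unadjusted p under 0.05. The lower calls then numbered 2 for the cuticle list, 1 for the epidermis list, 10 for flavonoids, 2 for PPR genes and 1 for repeat proteins with a miR161 or miR400 site, and 64 of 153 named genes lost their call. At an adjusted p under 0.01 the calls were 3039, with 1826 higher and 1213 lower, and 18 for the cuticle list, 23 for PPR genes and 7 for those with a site. Scaling by library totals gave 4344 lower genes and 103 lower PPR genes, and turned the estimate of ACT2, not called in either, to -0.0765. DESeq2 gave 101 lower genes at the stricter threshold in place of 55.

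Leaving out each of the 7 libraries gave 4039 to 6236 calls, 39 to 90 lower genes at the stricter threshold, 38 to 94 lower PPR genes and 8 to 17 lower repeat proteins with a site. Same-numbered libraries correlated at 0.0527, -0.0245 and -0.0901 in their deviations from group means, so the numbers do not pair them; the fit with a replicate block called 4096 genes, 2013 higher and 2083 lower, and 11 of 153 named genes lost their call. Total calls under the other scalings, filters and tools ran from 5560 to 6471. Genes with few counts, such as the ta-siRNA loci and the largest increases, rest on counting error as well as on the spread between libraries.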
